A study of Mus musculus with 16 samples.

Results

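The genes described here are 10 transcription factors and cofactors that direct red cell formation in the mouse: *Gata1*, *Klf1*, *Tal1*, *Nfe2*, *Lmo2*, *Ldb1*, *Zfpm1*, *Bcl11a*, *Gfi1b* and *Foxo3*. They were chosen by symbol, for their known roles, out of the 15386 genes of an RNA-seq count table and the 13490 genes of an m6A count table. Earlier results of these data were known when they were chosen. All 10 were present in both tables, and all 10 passed the filter on low counts, as did 11979 and 11447 genes in all.

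The cells were CFU-E, erythroid progenitors sorted from the lineage-negative bone marrow of adult male and female mice on a C57BL/6 background as CD16/32-, CD41-, CD34-, Sca1-, Kit+ and CD71+. *Mettl3*-deficient mice were *Mettl3* fl/fl with a single copy of EpoR-tdTomato-Cre, which is driven by the erythropoietin receptor gene and also recombines in the macrophages of erythroblastic islands. The paper reports that *Mettl3* mRNA was also partly lost in lineage-negative Sca1+ Kit+ cells, which include stem cells. It found no significant change in the shares of stem cells and progenitors. The study's other assays name their control mice by the Cre alone (EpoR-TdTomato-cre/-), but the genotype behind the control libraries is not given in the sources used here, so whether both groups share the Cre was not settled. METTL3 is the methyltransferase that writes m6A on mRNA. Smart-seq2 RNA-seq compared 3 libraries of control CFU-E with 3 libraries of *Mettl3*-deficient CFU-E Kit-lo, the *Mettl3*-deficient cells with low surface Kit, and SLIM-seq compared 2 libraries of RNA pulled down with an anti-m6A antibody (IP) with 2 of the RNA before the pull-down (input), all from control CFU-E. Genotype and Kit level differed together in the RNA-seq comparison, so their contributions cannot be told apart. The labels do not say that the libraries of a group came from separate animals, and p-values measure only the spread between these libraries, which may be technical.

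GATA1, TAL1, LMO2 and LDB1 assemble on DNA into one complex, in which GATA1 and TAL1 bind their own sequence words, LMO2 bridges them, and LDB1 joins complexes at distant sites to loop enhancers to promoters. KLF1 and NFE2 bind nearby CACCC and MARE sequences and switch on globin, heme and membrane genes, FOG1 (the product of *Zfpm1*) lets GATA1 activate or silence its targets, and GFI1B and BCL11A silence genes of earlier progenitors and of embryonic globins. FOXO3 joins this network late, where it drives genes of oxidative defense, autophagy and cell-cycle exit.

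Counts per library ran from 17429262 to 21329242 in the RNA-seq and from 19421059 to 37142742 in the m6A experiment, and levels are given as CPM, the counts of a gene relative to the total of its library after TMM scaling. *Mettl3* itself, the targeted gene, stood at 115, 123 and 130 CPM in control libraries and at 117, 127 and 108 CPM in Kit-lo libraries, a log2 fold change of -0.07 (SE 0.096, adjusted p = 0.63, edgeR). A gene-level count can include transcripts that have lost only the floxed exons, so this value does not check the genotype, and the libraries are named by their label. *Kit* mRNA was 598 ± 47.1 CPM (SD, n = 3) in control and 55.2 ± 12.4 CPM (n = 3) in Kit-lo libraries. The gate was set on surface Kit and not on mRNA. The paper also reports lower *Kit* mRNA in *Mettl3*-deficient CFU-E by qRT-PCR. Of the 11 erythroid markers examined, all 11 were present in the RNA-seq table. Their summed level was 11856 to 12882 CPM in control and 12023 to 14067 CPM in Kit-lo libraries. In edgeR 7 of the 11 were upregulated in Kit-lo libraries, against 12.1% of all tested genes. Most of the sum was *Car2*, carbonic anhydrase 2, singled out after its values were seen, at 9326 CPM in control and 7440 CPM in Kit-lo libraries. Hemoglobin transcripts rose from 0.00632-0.00685% of counts in control libraries to 0.23-0.39% in Kit-lo libraries. Macrophage markers, 8 of 9 in the table, summed to 6.63 to 11.2 CPM in control and 6.18 to 8.5 CPM in Kit-lo libraries, and none reached 10 CPM in any library. Megakaryocyte markers, 5 of 8 in the table, summed to 21.1 to 27.2 CPM in control and 21.2 to 29.2 CPM in Kit-lo libraries. Granulocyte markers, 8 of 8, summed to 25.5 to 37.8 CPM and 16.0 to 24.0 CPM. Mast cell and basophil (4 of 5), B cell (6 of 7), and T and NK cell markers (4 of 5) summed to at most 6.94 CPM in any RNA-seq library. B cell markers summed to 0.910 to 2.29 CPM in control and 3.58 to 6.94 CPM in Kit-lo libraries. In the m6A table, erythroid markers (10 of 11) summed to 8394 to 10313 CPM in input and 5367 to 6364 CPM in IP libraries. T and NK cell markers (4 of 5) had the highest sum of the other cell types there, 29.9 to 44.5 CPM in input and 17.4 to 18.5 CPM in IP libraries. None of the markers in the table was at 0 in all libraries, and the part of these cell types in the results below was not tested.

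In control CFU-E, by Smart-seq2, the factors spanned more than 2 orders of magnitude per unit of length of the longest annotated transcript. *Klf1* stood at 626, *Gfi1b* at 556 and *Gata1* at 312 CPM per kilobase, above the other 7 factors. A middle group held *Nfe2* at 66.0, *Lmo2* at 33.7, *Bcl11a* at 32.7 and *Ldb1* at 22.9 CPM per kilobase, and *Tal1* (3.56), *Zfpm1* (3.18) and *Foxo3* (1.54 CPM per kilobase) were lowest. By this length the ranges of 3 libraries overlapped for *Klf1* and *Gfi1b*, for *Lmo2* and *Bcl11a*, and for *Tal1* and *Zfpm1*. The order within these pairs was thus not resolved by the longest transcript, whereas the other neighbors did not overlap. The order depended on the length taken, and by the median transcript *Gfi1b* (995) and *Gata1* (879 CPM per kilobase) stood above *Klf1* (626). The upper 3 and the lower 3 factors in control libraries were the same by the longest transcript, the median transcript and the union of exons. In Kit-lo libraries *Bcl11a* (62.6 CPM per kilobase) stood above *Lmo2* (37.3) and *Zfpm1* (8.71) above *Tal1* (5.31), with ranges that did not overlap, while *Tal1* and *Foxo3* (4.07) overlapped. By the union of exons *Bcl11a* (28.5) and *Lmo2* (29.4 CPM per kilobase) overlapped in Kit-lo libraries. By the median transcript both orders already held in control libraries, without overlap. There *Bcl11a* (72.7) stood above *Lmo2* (50.3), and *Zfpm1* (15.3) above *Tal1* (4.55 CPM per kilobase). Within the GATA1 complex, *Gata1* mRNA thus exceeded *Lmo2* and *Ldb1* mRNA by Smart-seq2, and *Tal1* mRNA was the lowest of the 4 in both groups by each of the 3 lengths.

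**Figure D1:**
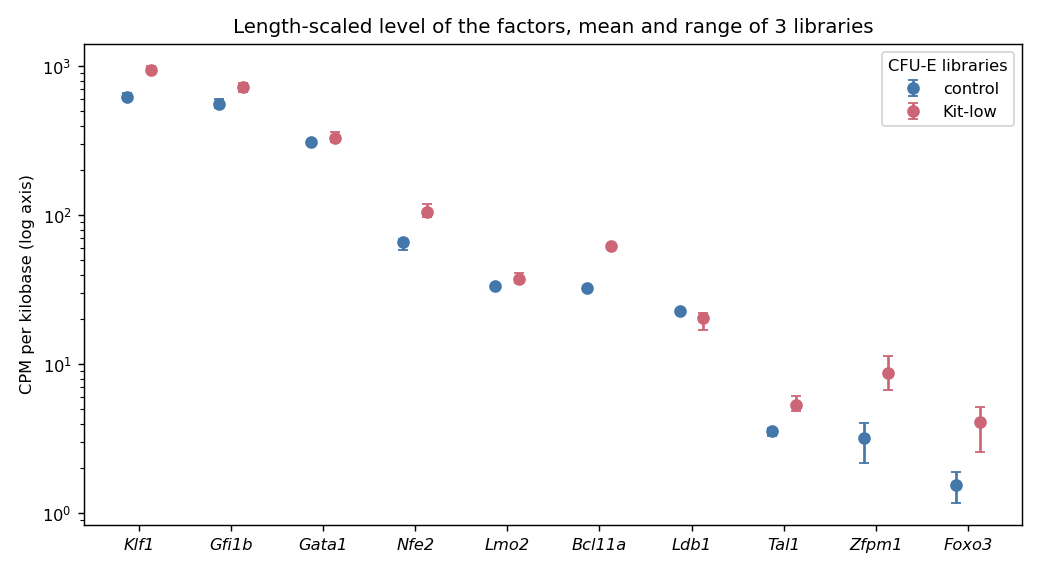
Length-scaled level of each factor in CPM per kilobase of its longest annotated transcript, on a log axis. Points are means and lines the range of 3 libraries, for control (blue) and Kit-lo (red) CFU-E. *Klf1*, *Gfi1b* and *Gata1* sit above 300 CPM per kilobase in both groups, and the means of *Tal1*, *Zfpm1* and *Foxo3* below 10.

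The first comparison asks how the factors stand in CFU-E Kit-lo libraries labelled *Mettl3*-deficient against control CFU-E. Of the 10 factors, 5 were upregulated (*Klf1*, *Nfe2*, *Zfpm1*, *Bcl11a* and *Foxo3*) and 0 were downregulated, where a DEG has a fold change of at least 1.5 and an adjusted p-value under 0.05 in the quasi-likelihood test of edgeR, adjusted by Benjamini-Hochberg over all tested genes. DESeq2 called the same counts, 5 and 0, and no factor had a lower level at an unadjusted p under 0.05. Among all tested genes, 12.1% were upregulated and 9.83% downregulated, 22% in either direction. The median log2 fold change of the factors was 0.58, against 0.01 over all tested genes. With the fold threshold dropped, 7 of 10 were higher and 0 lower, against a background of 17.6% higher and 16.9% lower, 34.5% in either direction. The groups did not overlap for 9 of the 10 factors, with 8 above and 1 below the control libraries, and for 47.5% of all tested genes, 23.5% above and 24% below. In bulk libraries fewer cells of a type and less RNA per cell cannot be told apart, and the same holds for more.

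**Figure D2:**
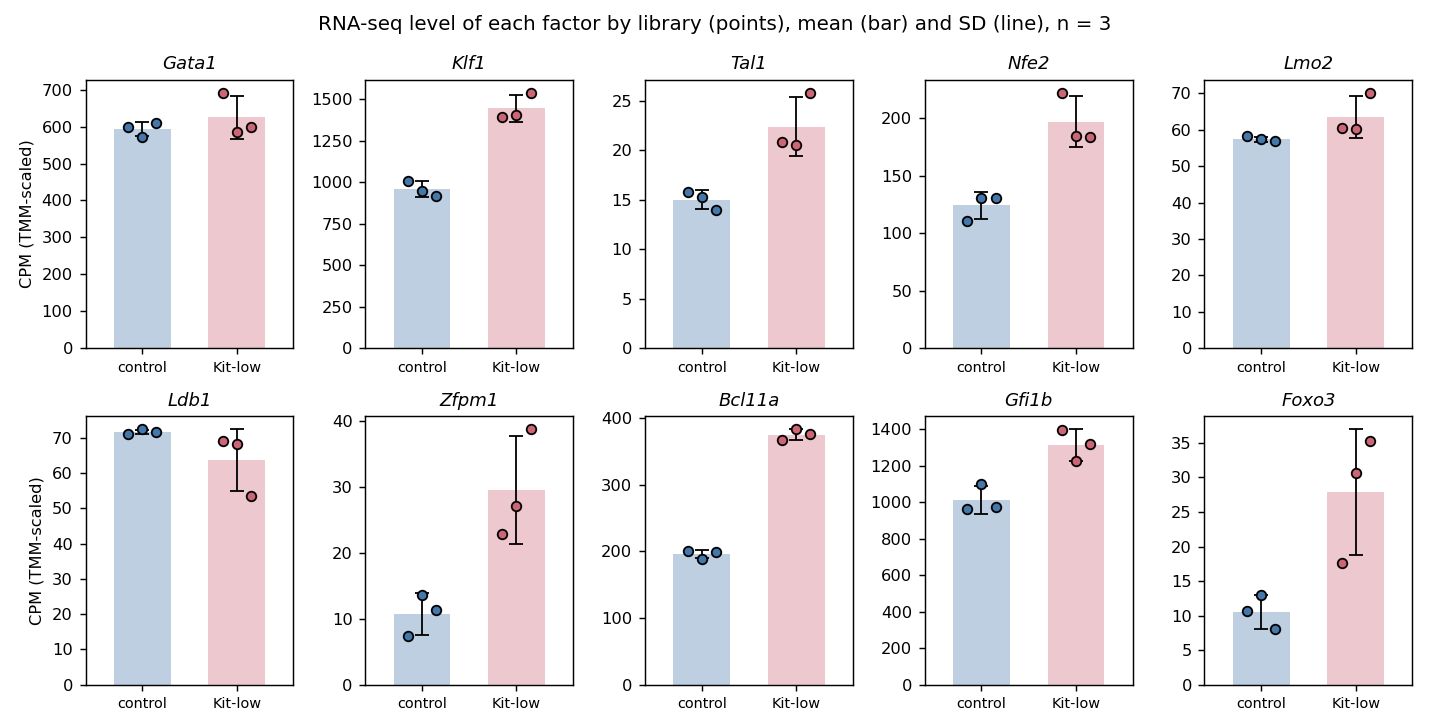
Level of each factor in CPM in the 3 control and 3 Kit-lo libraries (points), with mean (bar) and SD (line). For 8 factors every Kit-lo library lies above every control library, for *Ldb1* every Kit-lo library lies below, and for *Gata1* the groups overlap.

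Among the members of the GATA1 complex, none passed both thresholds. *Gata1*, the zinc finger factor that heads the program, was measured at 599, 573 and 610 CPM in control libraries and at 692, 586 and 598 CPM in Kit-lo libraries. The groups overlapped, and the log2 fold change of 0.07 (SE 0.083, adjusted p = 0.53, edgeR) had a 95% interval of -0.11 to 0.26, which leaves out a change of 1.5-fold. *Lmo2*, the bridging LIM protein, stood at 58.2, 57.4 and 56.8 CPM and at 60.5, 60.1 and 70.2 CPM, with a log2 fold change of 0.15 (interval -0.09 to 0.38, adjusted p = 0.32, edgeR). *Ldb1*, the looping protein, stood at 71.0, 72.4 and 71.4 CPM and at 69.0, 68.3 and 53.4 CPM, with a log2 fold change of -0.17 (interval -0.44 to 0.09, adjusted p = 0.30, edgeR). It was the one factor with all Kit-lo libraries below the control libraries, and the third Kit-lo library was both the lowest for *Ldb1* and the highest for *Lmo2*. Without that library the log2 fold change of *Ldb1* was -0.05. *Ldb1* shares 177 of its 4606 exonic bases (3.84%) with *Pprc1* on the opposite strand, and the strand used in counting is not given in the sources used here, so a part of its reads may belong to that gene.

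*Tal1*, the basic helix-loop-helix factor of the complex, was measured at 15.75, 15.27 and 13.97 CPM in control and at 20.8, 20.5 and 25.8 CPM in Kit-lo libraries. All Kit-lo libraries lay above all control libraries, and the log2 fold change was 0.58 (SE 0.16, adjusted p = 0.018, edgeR). Its fold of 1.49 fell just outside the threshold, while the fold of *Klf1*, 1.51, fell just inside it, and their intervals (0.22 to 0.93 and 0.43 to 0.76 on the log2 scale) overlap, the second lying within the first. *Tal1* passed as a DEG without control library 1 (0.61), Kit-lo library 1 (0.62) or Kit-lo library 2 (0.66), and its adjusted p rose to 0.055 without control library 2 and to 0.081 without control library 3.

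Both activators of globin and membrane genes were upregulated. *Klf1*, the CACCC-binding zinc finger factor, was measured at 1008, 948 and 919 CPM in control and at 1392, 1402 and 1540 CPM in Kit-lo libraries. The log2 fold change was 0.59 (SE 0.075, adjusted p = 0.00024, edgeR). The rise itself passed the p-value threshold under every alternative, but its fold dropped below 1.5 without control library 2 (0.58), control library 3 (0.55) or Kit-lo library 3 (0.56 on the log2 scale). *Nfe2*, the p45 subunit of the NF-E2 dimer, was measured at 111, 131 and 131 CPM in control and at 222, 185 and 184 CPM in Kit-lo libraries. Its log2 fold change was 0.67 (SE 0.11, adjusted p = 0.0010, edgeR), and without Kit-lo library 1, the highest, it was 0.57, under the fold threshold.

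The cofactor *Zfpm1*, like *Foxo3* below, rose more than 2.5-fold. It was measured at 7.33, 13.6 and 11.4 CPM in control and at 22.8, 27.0 and 38.7 CPM in Kit-lo libraries, a log2 fold change of 1.46 (SE 0.26, adjusted p = 0.0019, edgeR), or 2.74-fold. Only 4.36% of tested genes had a larger log2 fold change. *Zfpm1* thus rose while *Gata1*, whose protein FOG1 binds, did not pass the test.

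Of the repressors, *Bcl11a* was upregulated, from 200, 189 and 199 CPM to 367, 383 and 375 CPM. The log2 fold change of 0.94 (SE 0.071, adjusted p = 1.0e-05, edgeR) was the most precise among the 10, since the libraries of a group differed by little. *Bcl11a* shares 316 of its 13175 exonic bases (2.40%) with *4930538E20Rik* on the opposite strand. Of the embryonic globin genes that BCL11A holds down, *Hba-x* alone was in the table, at 0.0191 CPM in control and 0.461 CPM in Kit-lo libraries, too low to be tested. *Gfi1b*, the SNAG-domain repressor, was higher by less than the fold threshold, from 963, 1101 and 977 CPM to 1398, 1226 and 1319 CPM. Its log2 fold change was 0.38 (SE 0.082, adjusted p = 0.0058, edgeR), a fold of 1.30, with no overlap between groups.

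*Foxo3*, the forkhead factor, rose from 10.68, 12.98 and 8.02 CPM to 17.7, 30.6 and 35.3 CPM, a log2 fold change of 1.40 (SE 0.27, adjusted p = 0.0028, edgeR), or 2.64-fold. The Kit-lo libraries spread more for *Foxo3* than for the abundant factors, and library 1 was nearest to the control libraries. The calls for *Zfpm1*, *Bcl11a* and *Foxo3* held in all 14 alternative settings of the RNA-seq fit.

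**Figure D3:**
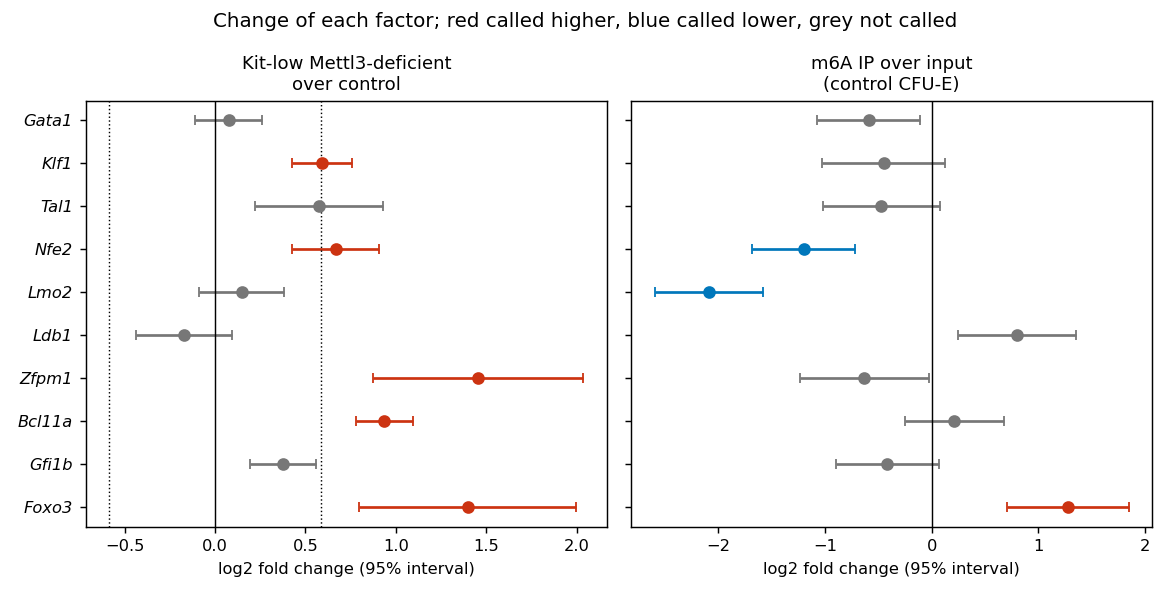
Log2 fold change of each factor with its 95% interval, on the left for Kit-lo *Mettl3*-deficient over control CFU-E (dotted lines at 1.5-fold either way) and on the right for m6A IP over input in control CFU-E. Red points were called higher, blue lower, and gray points did not pass: 5 are red on the left, and on the right *Foxo3* is red while *Lmo2* and *Nfe2* are blue.

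Ratios of 2 genes within the same library do not depend on how libraries are scaled, and 11 pairs of partners or family members were compared by an exact two-sided permutation test, whose smallest p with 3 against 3 libraries is 0.10. GATA1 takes over sites from GATA2 as erythroid cells mature, and the log2 ratio of *Gata1* to *Gata2* was 4.04, 4.18 and 4.06 in control and 8.42, 7.65 and 8.09 in Kit-lo libraries. The difference of 3.96 (exact p = 0.10, adjusted p = 0.16) rested on *Gata2*, which fell from 34.7 to 2.27 CPM (log2 fold change -3.93, adjusted p = 1.2e-06, edgeR). The ratio of *Tal1* to its relative *Lyl1* was higher in Kit-lo libraries by 0.95, that of *Lmo2* to *Lmo4* by 0.69, and that of *Zfpm1* to *Gata1* by 1.38, each without overlap and each with exact p = 0.10. Inside the GATA1 complex, *Gata1*, *Tal1* and *Lmo2* were higher relative to *Ldb1* by 0.25, 0.75 and 0.32, again without overlap and with exact p = 0.10. For *Lmo2* over *Ldb1* the third Kit-lo library stood apart, with a log2 ratio of 0.39 against -0.19 and -0.18 in the other Kit-lo libraries, and without it the difference was 0.13 for *Lmo2*, 0.16 for *Gata1* and 0.52 for *Tal1* over *Ldb1*.

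The other 4 pairs overlapped between groups. *Klf1* over *Klf3* differed by 0.26, *Nfe2* over its competitor *Bach1* by 0.45, and *Foxo3* over *Foxo1* by 0.87, each with exact p = 0.30. These values rested on single libraries. *Klf1* over *Klf3* was 0.12 without Kit-lo library 3, 0.15 without control library 2 and 0.40 without control library 1. *Nfe2* over *Bach1* was 0.23 without Kit-lo library 1 and 0.73 without Kit-lo library 2, and *Foxo3* over *Foxo1* was 0.33 without control library 3 and 1.31 without control library 2. *Bcl11a* and *Zbtb7a*, both repressors of embryonic or fetal globin genes, kept a log2 ratio of 4.31 ± 0.13 (SD, n = 3) in control and 4.30 ± 0.12 in Kit-lo libraries, a difference of -0.01 (exact p = 0.90), and *Zbtb7a* was itself upregulated, from 9.81 to 19.0 CPM (0.95, adjusted p = 0.0021, edgeR).

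**Figure D4:**
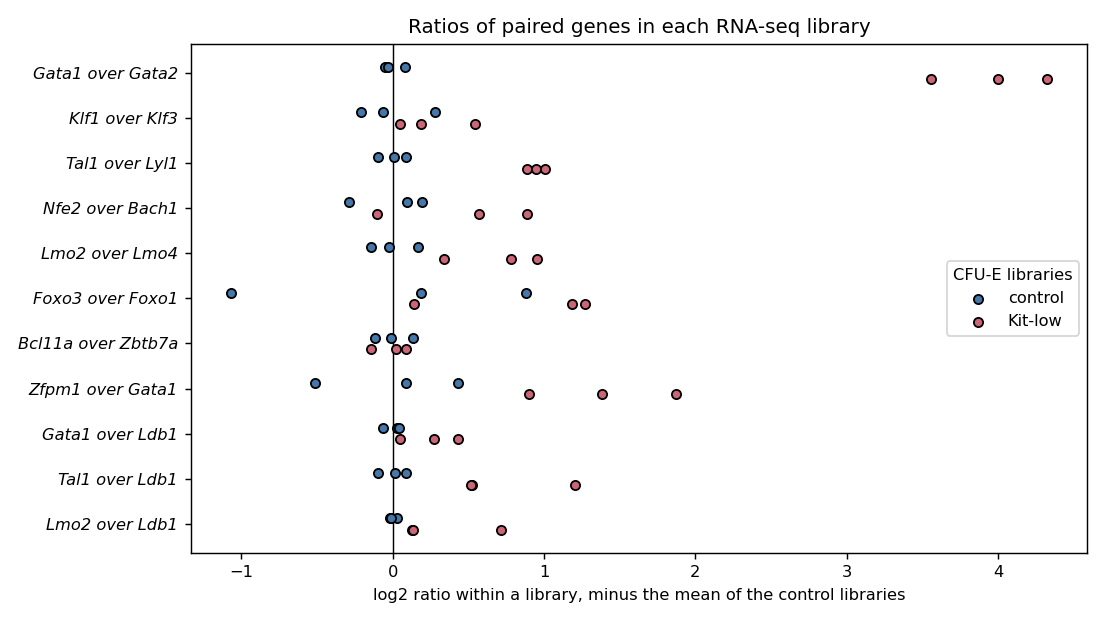
Log2 ratio of 11 gene pairs within each RNA-seq library, after subtracting the mean of the 3 control libraries (vertical line at 0), with control libraries in blue and Kit-lo libraries in red. The Kit-lo points of *Gata1* over *Gata2* lie about 4 above the control points, and those of *Bcl11a* over *Zbtb7a* lie among them.

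Genes known as targets of the factors were counted in lists written from general knowledge, but with earlier results of these data known. The counts below therefore describe the lists and are not independent support. Of 40 tested genes that GATA1, KLF1, TAL1 or NFE2 activate, 24 were upregulated and 0 downregulated, with a median log2 fold change of 0.74, against the background of 12.1% and 9.83%. DESeq2 also called 24 and 0, and 1 gene was lower at an unadjusted p under 0.05 in edgeR. Every erythroid marker counted earlier except *Car2* is also in this list, so the 2 counts are not separate results. The largest rises were those of *Slc4a1*, the band 3 anion exchanger (1.85 to 288 CPM, 7.31 on the log2 scale), and of the adult beta globin genes *Hbb-bs* (3.94 to 448 CPM, 6.84) and *Hbb-bt* (1.47 to 128 CPM, 6.42), which are near-identical copies whose reads may be split between them. Of 16 tested genes that GATA1, TAL1 or GFI1B complexes repress in maturing erythroid cells, 8 were downregulated and 0 upregulated in edgeR, with a median of -0.78, where DESeq2 called 7 and 0 and no gene was higher at an unadjusted p under 0.05. *Hhex*, a homeobox gene of early progenitors, fell from 32.2 to 1.52 CPM (-4.39 on the log2 scale), and *Gata2* fell as above. The 8 include *Kit*, whose surface protein was gated. They also include *Mpo* (19.6 to 5.01 CPM), which was counted earlier as a granulocyte marker. Of 27 tested FOXO3 targets, 5 were upregulated and 2 downregulated, with a median of 0.04. *Trib3*, a stress-induced pseudokinase (0.264 to 8.81 CPM, 5.08), *Cdkn1a*, the cell-cycle inhibitor p21 (0.857 to 20.8 CPM, 4.57), and *Sesn2*, a stress-induced sestrin (45.3 to 85.4 CPM, 0.91), rose most. *Klf6* (-1.06) and the autophagy gene *Atg12* (-0.73) fell. Whether FOXO3 acted on these genes here was not tested, and the paper places *Cdkn1a* among proapoptotic genes that rose in these cells.

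Of 49 tested partners and co-regulators of the factors, 5 were upregulated and 7 downregulated, near the 12.1% and 9.83% of all tested genes, with a median log2 fold change of -0.07. *E2f2*, a cell-cycle factor of late erythroblasts, rose from 14.6 to 81.0 CPM (2.48), *Sox6*, a partner of BCL11A in globin silencing, from 11.5 to 45.2 CPM (1.97), and *Ssbp4*, of the single-stranded DNA-binding proteins that stabilize LDB1, from 10.9 to 30.0 CPM (1.46). *Myb*, a factor of proliferating progenitors, fell from 157 to 22.1 CPM (-2.83), and *Cbfa2t3*, the ETO2 corepressor of the TAL1 complex, from 95.7 to 44.0 CPM (-1.12). *E2f2* is also among the activated targets, and *Gata2* and *Myb* among the repressed genes.

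The genes whose pattern over the 6 RNA-seq libraries was nearest to each upregulated factor were found among 9056 genes by Euclidean distance in centered log2 CPM. *Klf1* was nearest to *Ythdf1*, which encodes an m6A reader, at a distance of 0.057 (31.0 CPM in control and 46.5 CPM in Kit-lo libraries), and to *Stk16* at 0.078. *Bcl11a* was nearest to *Pclaf* (0.10) and *Bax* (0.11), and *Nfe2* to *Abhd4* and *Cdc42ep4* (both 0.12). The noisier *Zfpm1* had its nearest genes, *Pdzk1ip1* and *Bmp2k*, at 0.29 and 0.30, and *Foxo3* had *Asb1* and *Fdx1l* at 0.32 and 0.33. With 6 libraries in 2 groups, any gene with a like change lies near, and the distances are a description.

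The promoters of 8 of the 10 factors (11 start sites) were in the RefSeq table of GRCm38.p6 and were searched on both strands, over the 250 bases before the start site, for words the factors bind. GATA words (AGATAA as well as TGATAA, together with AGATAG as well as TGATAG) were present in 4 of these 11 promoters and in 26.5% of all 32851 promoters, CACCC words (CCACACCC, CCGCACCC or CCCCACCC) in 3 of the 11 and in 13.1% of all promoters, and the E-box word CAGATG in 1 of the 11 and in 14.4% of all promoters. *Klf1* held both a GATA word and an E-box, 80 and 59 bases before the start site, words of the kinds that GATA1 and TAL1 bind. Whether their spacing is that of a site bound by both proteins together was not examined. *Gfi1b* held a GATA word 120 bases, *Tal1* one 205 bases and *Bcl11a* a CACCC word 68 bases before the start site. Factors that were not higher also held such words. *Ldb1* held 2 GATA words and 1 CACCC word in 1 of its promoters, and *Gata1* a CACCC word 55 bases before the start site. *Zfpm1* and *Foxo3*, which rose most, held none of these words. A match is a description of the letters and not evidence of binding. These 4 promoters are shown 5′ to 3′ on the strand of the gene, because they belong to factors that were higher in Kit-lo libraries and hold such words, here in capitals (TTATCA is TGATAA on the other strand, and TTATCT likewise AGATAA).
Klf1, chr8:84901732-84901981, plus strand: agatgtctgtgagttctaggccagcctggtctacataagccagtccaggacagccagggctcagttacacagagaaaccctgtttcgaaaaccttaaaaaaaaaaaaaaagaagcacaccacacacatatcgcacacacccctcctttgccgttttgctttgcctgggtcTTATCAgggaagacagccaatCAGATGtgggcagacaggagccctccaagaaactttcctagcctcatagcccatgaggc
Gfi1b, chr2:28621983-28622232, minus strand: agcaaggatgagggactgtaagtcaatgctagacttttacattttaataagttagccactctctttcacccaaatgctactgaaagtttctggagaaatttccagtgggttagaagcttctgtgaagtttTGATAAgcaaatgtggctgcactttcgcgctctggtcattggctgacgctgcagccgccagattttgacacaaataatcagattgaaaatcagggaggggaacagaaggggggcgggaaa
Tal1, chr4:115056176-115056425, plus strand: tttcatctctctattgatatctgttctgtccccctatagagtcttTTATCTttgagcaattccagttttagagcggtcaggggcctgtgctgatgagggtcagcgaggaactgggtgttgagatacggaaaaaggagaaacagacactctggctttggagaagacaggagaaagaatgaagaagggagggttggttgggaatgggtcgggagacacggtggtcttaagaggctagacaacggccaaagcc
Bcl11a, chr11:24080445-24080694, plus strand: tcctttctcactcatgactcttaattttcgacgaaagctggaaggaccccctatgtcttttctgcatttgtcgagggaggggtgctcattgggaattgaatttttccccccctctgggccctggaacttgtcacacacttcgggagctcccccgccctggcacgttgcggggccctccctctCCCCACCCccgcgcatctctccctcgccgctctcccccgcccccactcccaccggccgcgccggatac

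The second comparison asks which factor mRNAs carry m6A in control CFU-E, with IP over input as its measure. A gene counts as m6A-modified where the log2 fold change is above 0 with an adjusted p-value under 0.05. Of the 10 factors, *Foxo3* was m6A-modified, *Lmo2* and *Nfe2* were lower in IP than in input, and 7 did not pass the test. Over all tested genes 7.9% were higher and 7.86% lower in IP, 15.8% in either direction. The groups of 2 did not overlap for any of the 10 factors, with 3 above and 7 below, but 60.9% of all tested genes did not overlap either, 32.2% above and 28.7% below. The median log2 fold change of the factors was -0.46, against 0.06 over all tested genes. The values are relative to the rest of the library, so a gene lower in IP is less enriched than most, and its mRNA may still carry m6A.

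**Figure D5:**
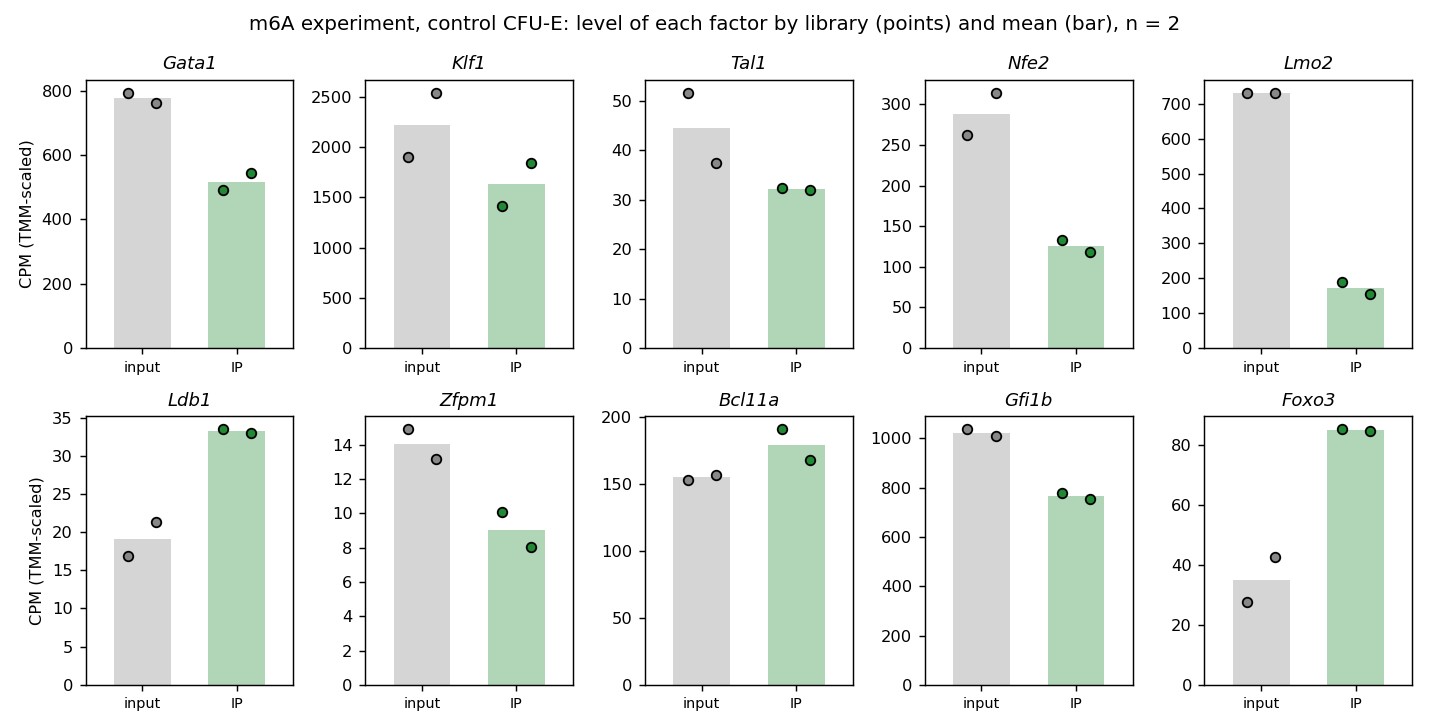
Level of each factor in CPM in the 2 input (gray) and 2 IP (green) libraries of control CFU-E, with points for libraries and bars for means. *Foxo3*, *Ldb1* and *Bcl11a* are higher in both IP libraries, and the other 7 factors are lower.

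*Foxo3* was measured at 27.7 and 42.4 CPM in input and at 85.1 and 84.5 CPM in IP libraries. Both IP libraries were above both input libraries, and the log2 fold change was 1.28 (SE 0.26, adjusted p = 0.0086, edgeR), or 2.42-fold. The call rested on the first input library, without which the log2 fold change was 0.98 with an adjusted p of 0.12. *Foxo3* was thus both the m6A-modified factor in control CFU-E and one of the 5 factors upregulated in Kit-lo libraries.

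*Lmo2* was measured at 729.7 and 732 CPM in input and fell to 190 and 154 CPM in IP libraries, with a log2 fold change of -2.09 (SE 0.23, adjusted p = 0.00019, edgeR). Of all tested genes 97.4% had a higher value. *Nfe2* was measured at 262 and 314 CPM in input and at 132 and 119 CPM in IP libraries, with a log2 fold change of -1.20 (SE 0.22, adjusted p = 0.0051, edgeR). Both calls held in all 11 alternative settings of the m6A fit. *Nfe2* was upregulated in Kit-lo libraries while *Lmo2* did not pass the test there.

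*Ldb1* came next to *Foxo3*, with 16.9 and 21.4 CPM in input and 33.5 and 33.0 CPM in IP libraries. Its log2 fold change of 0.80 (SE 0.25) just missed the threshold with an adjusted p of 0.053 in edgeR, and it passed with DESeq2 (0.76, adjusted p = 0.038). *Bcl11a* was at 153 and 157 CPM in input and at 191 and 168 CPM in IP libraries, with a log2 fold change of 0.21 (interval -0.25 to 0.67, adjusted p = 0.53, edgeR). The other 5 factors were below 0. *Gata1* stood at 795 and 763 CPM in input and 490 and 544 CPM in IP libraries (log2 fold change -0.59, adjusted p = 0.090, edgeR), and with DESeq2 its adjusted p was 0.043. *Zfpm1* had a log2 fold change of -0.63, *Tal1* of -0.47, *Klf1* of -0.45 and *Gfi1b* of -0.42, with adjusted p-values from 0.14 to 0.26 in edgeR. The 5 upregulated factors were therefore divided on this measure, with 1 higher in IP, 1 lower and 3 that did not pass.

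GGACT is a common form of the sequence in which METTL3 methylates the adenosine, and SLIM-seq reads come from the 3′ ends of transcripts. In the last 1000 bases of the longest annotated coding transcript, 4 of the 10 factors held at least 1 GGACT (*Klf1* 4, *Lmo2* 2, *Ldb1* 1 and *Foxo3* 1), against 61.8% of the 10773 tested genes with a transcript of that length. In this window the word did not separate the factors as the IP did, since *Lmo2* held 2 and was lower in IP. The paper describes no cutting of RNA before the pull-down, so m6A outside the window could also enrich a transcript. The window follows where reads are counted and cannot decide which mRNAs the antibody could capture. Over the whole transcript, *Foxo3* held 5 in 6848 bases, *Lmo2* 2 in 1706 bases and *Nfe2* 1 in 1878 bases. Their sites are shown, with 1 in the 5′ UTR of *Nfe2*, both of *Lmo2* in the 3′ UTR in exon 3 of 3, and those of *Foxo3* in the coding part of exon 3 and in the 3′ UTR in exon 4 of 4. They are the calls in either direction, so that the letters around GGACT (in capitals) can be compared, on the transcript strand and in GRCm38.
Foxo3, coding, chr10:42196757-42196781, minus strand: aaaccctctcGGACTctctctcagg
Foxo3, 3′ UTR, chr10:42184243-42184267, minus strand: ttttggtggaGGACTaactggcttt
Foxo3, 3′ UTR, chr10:42183293-42183317, minus strand: cctagctctaGGACTgactgggctc
Foxo3, 3′ UTR, chr10:42182907-42182931, minus strand: gtcatcccccGGACTaagggaaaac
Foxo3, 3′ UTR, chr10:42182639-42182663, minus strand: ctgtcaaacaGGACTagagaaagat
Lmo2, 3′ UTR, chr2:103981202-103981226, plus strand: aggagattatGGACTcttcctgggc
Lmo2, 3′ UTR, chr2:103981425-103981449, plus strand: tggtgttcatGGACTagagttgtgc
Nfe2, 5′ UTR, chr15:103251270-103251294, minus strand: tgtgtccagaGGACTgactatggtc

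The lists of related genes were counted in the same way, against the 7.9% higher and 7.86% lower in IP of all tested genes. Of 51 tested partners and co-regulators, 9 were m6A-modified and 10 lower in IP. *Cbfa2t2*, an ETO-family corepressor (1.92), and the coactivators *Crebbp* (1.64) and *Med1* (1.47) had the largest positive log2 fold changes, and *Hdac2* (-2.72), *Ssbp4* (-2.38) and *E2f4* (-2.34) the largest negative ones. Of 38 activated targets 4 were higher and 3 lower, near those shares, and of 18 repressed genes 2 were higher and 4 lower. Of 27 FOXO3 targets 0 were higher and 4 lower in both edgeR and DESeq2, with 3 higher at an unadjusted p under 0.05 in edgeR, and those named by the rule were *Cited2* (-4.60), *Pink1* (-3.27) and *Gadd45a* (-1.66).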

How the data were processed

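The labels gave the group and number of each library. Of 16 samples mapped, 10 had values, and the 6 from ProE were not used here. The authors filtered reads with fastp 0.23.4, quantified transcripts with Kallisto 0.48.0 on mm10, summed them per gene with tximport, and deposited estimated counts, not normalized, one column per library. All values were whole, so rounding changed nothing. Whether strand or molecular identifiers were used in counting is not given in the sources used here.

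Counts were fitted in R 4.3.3 with edgeR 4.0.16 (TMM, filterByExpr, glmQLFit, glmQLFTest), one fit per experiment over the whole table, without a block. Benjamini-Hochberg adjustment ran over all tested genes. edgeR's biological coefficient of variation, a common value over all tested genes, was 19.1% for RNA-seq and 21.9% for m6A. It does not give the precision of a single factor. The SE of a factor was taken from the test of that gene and ran from 0.071 to 0.27 in RNA-seq. Ratios used log2 CPM with a prior count of 2. Alternatives were DESeq2 1.42.0, other scalings, other filters, a replicate block and leaving out each library. Scripts were tested on simulated data. Same-numbered RNA-seq libraries did not deviate together (r of 0.03, -0.02 and -0.07).

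The members and lists were chosen with earlier results of these data known. Named genes are the 10 factors, the genes of the ratio pairs, from each list up to 3 called genes that rose most and up to 3 that fell most at a mean log2 CPM of at least 2, the 2 nearest genes of each upregulated factor, and *Mettl3* and *Kit*. The pair of *Gfi1b* and *Gfi1* was dropped because *Gfi1* had no value in the RNA-seq table. Annotation was GENCODE and RefSeq of GRCm38, in which 99.9% of symbols matched. Figures used Python 3.11.15 and matplotlib 3.10.9.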

Additional observations from a re-analysis of the deposited data

How the results depend on the processing

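Of 140 values of the 10 factors under alternative settings of the RNA-seq fit, 129 kept their direction and their side of the thresholds, and of 110 in the m6A fit 103 did. The log2 fold change of *Gata1* ran from -0.0074 (without Kit-lo replicate 1) to 0.15 when a library was left out. The ratio of *Bcl11a* to *Zbtb7a* ran from -0.073 to 0.052, turning positive without control replicate 2 (0.052) and without Kit-lo replicate 3 (0.052). *Klf1* lost its fold call with upper-quartile scaling (0.55) and with no filter on low counts (0.57), and *Tal1* gained it with library size only (0.63). The cause of these changes was not tested. Dropping the fold threshold raised the count of all genes lower in Kit-lo libraries from 1178 to 2024. RNA-seq genes higher and lower were 1453 and 1178 with TMM, 1330 and 1293 with upper-quartile scaling, and 1586 and 1016 with library size only.

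In the m6A fit, 2 factors were m6A-modified rather than 1 with DESeq2, library size only and upper-quartile scaling, in each case with *Ldb1* added, and 0 to 1 when a library was left out, where the lone library is assumed to vary like the other group. Genes higher and lower in IP were 904 and 900 with TMM, 1451 and 754 with upper-quartile scaling, and 934 and 608 with library size only, which moved the median log2 fold change of all genes from 0.06 to 0.18 and 0.21. Leaving out a library gave 164 to 1358 higher and 427 to 968 lower. The SE of a factor's log2 fold change was 0.21 to 0.27 with 2 libraries a group in the m6A fit and 0.071 to 0.27 with 3 a group in the RNA-seq fit.

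With a replicate block the RNA-seq gave 5 factors higher and 0 lower, and 1370 and 1125 of all genes. The labels do not state that m6A libraries of one number share RNA. Same-numbered libraries gave an r of 0.21, which is a single value, since with 2 libraries a group both pairs must give the same r. With the replicate block 2 factors were higher and 3 lower in IP, *Ldb1* (adjusted p = 0.0060) and *Gata1* (adjusted p = 0.010, edgeR) being added, and 1783 of all genes were higher and 1755 lower.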

Other observations

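The 2 methods gave unlike levels for some factors in control CFU-E, where the tables were normalized separately and the library preparations differed. *Lmo2* was at 57.4 CPM by Smart-seq2 and at 731 CPM in SLIM-seq input, 12.7-fold higher, whereas *Ldb1* was at 71.6 and 19.1 CPM, 3.74-fold lower in input. *Foxo3*, *Tal1*, *Nfe2* and *Klf1* were 3.32-, 2.97-, 2.32- and 2.32-fold higher in input, and *Gfi1b* was at 1013 and 1023 CPM. *Ldb1* and *Lmo2*, partners in one complex, therefore stood in opposite order by the 2 methods in CPM, which takes no account of transcript length. Per kilobase of the longest transcript, Smart-seq2 put *Lmo2* (33.7) above *Ldb1* (22.9) in control libraries, as did the other 2 lengths. That is the order of the SLIM-seq input, so the reversal is limited to CPM without length.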
